A study of Homo sapiens with 12 samples.

Results

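Cells build cholesterol and fatty acids from acetyl-CoA, and 35 genes of these pathways, chosen by symbol, are described here in 2 human small cell lung cancer lines. They are 18 enzymes of sterol synthesis, 6 genes of SREBP control and sterol transport, 8 of fatty acid synthesis and 3 targets of LXR. All 35 were found among the 56508 symbols of the deposited table, and 34 of them reached 1 in no fewer than 3 libraries and were tested among the 15456 genes that did; ABCA1 did not reach that level. ABCG1 passed it only through the H211 libraries, where it is high, so its difference between the lines follows in part from the filter.

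As background, SREBP2 (from SREBF2) mainly drives the genes of sterol synthesis and SREBP1 (from SREBF1) mainly those of fatty acid synthesis. Both are membrane proteins that SCAP escorts from the endoplasmic reticulum to the Golgi for cleavage when sterols are low. INSIG1, itself an SREBP target, holds the SCAP complex back when sterols are plentiful. LXR, a nuclear receptor for oxysterols, turns on sterol export genes and SREBF1.

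Messenger RNA was sequenced from H82 and H211, established lines labelled wild type, grown in RPMI with 10% FBS and antibiotics. Each was treated with ORY-1001, an inhibitor of the histone demethylase LSD1, at 1 µM, or with vehicle (PBS), and each of the 4 groups held 3 libraries. The treatment lasted 7 days by the sample labels and 10 days by the treatment protocol, and which applied is not known here. A difference between H82 and H211 is one between 2 single lines. The labels do not say that replicates were separate cultures, so the p-values rest on a spread between libraries that may be technical alone.

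All levels are the deposited TPM, rescaled between libraries by the authors, and read depth is unknown. Libraries of a group correlated at 0.988 to 0.991 across genes, which are not independent replicates. KDM1A, which encodes LSD1, lay between 181 and 195.4 in all 12 libraries; the compound acts on the protein, so its transcript does not check the treatment. NEUROD1, a subtype factor, was at 122.9 to 139 in H82, and POU2F3, the tuft-cell factor, at 245.7 to 285.2 in H211. The neuroendocrine markers CHGA and SYP, both at 35.93 to 170.8 in H82, were at 0.9657 to 4.933 in H211. Some markers moved with treatment, by the limma test given below. In H82 CHGA fell 2.67-fold (adjusted p = 0.000129), NCAM1 1.83-fold (3.18e-07), INSM1 1.48-fold (0.00859) and SYP 1.24-fold (0.0332). POU2F3, low in H82, fell 1.39-fold there (0.0433). In H211 NCAM1 rose 1.25-fold (0.00132), while POU2F3 (0.37), CHGA (0.241), SYP (0.113) and INSM1 (0.501) were not called. NEUROD1 was called in neither H82 (0.499) nor H211 (0.391). The part of these marker changes in the sterol gene changes was not tested. Myeloid and leukocyte transcripts differed between libraries. The summed level of 15 such markers was 3.087 to 5.062 in the H82 controls and 32.1 to 42.21 with ORY-1001. In H211 it was 30.51, 171.9 and 3.764 in control replicates 1, 2 and 3 and 2.386, 3.456 and 36.74 with ORY-1001. Of these 15 markers, 6 were higher in every treated than in every control library of H82, and 1 (CD68) was lower. The share of all tested genes that part in this way was not counted, so these counts are a description only. C1QB was at 0 in all 12 libraries. Fetal globin HBG2 was at 23.9, 28.15 and 22.43 in the H82 controls, and no treated H82 library lay in that range. It varied within the other groups. With ORY-1001 it was at 53.02 in H82 replicate 3 but 0 and 0.1204 in its partners. In H211 controls it was at 47.39 and 40.62 in replicates 1 and 2 but 18.67 in replicate 3. In treated H211 it was at 0 in replicate 3 but 22.35 and 16.84 in replicates 1 and 2. Summed hepatocyte and adipocyte markers, from tissues rich in these pathways, stayed between 0.5391 and 2.79.

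ORY-1001 was accompanied by opposite changes of sterol synthesis genes in the lines. In H82, 15 of the 18 enzymes rose and 1 fell, with a median log2 change of 0.44. In H211, 11 fell and none rose, with a median of -0.25. The test was limma on log2(TPM + 1), with adjusted p under 0.05 over all tested genes, and here and below "rose" and "fell" mean that this was passed. By the same rule 19.1% of all tested genes rose and 23.9% fell in H82 (43.0% either way), and 8.95% rose and 9.61% fell in H211 (18.6% either way). The medians over all tested genes were -0.02 and -0.0021. In bulk RNA, less transcript per cell and fewer cells that carry it cannot be told apart.

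HMGCS1, which makes HMG-CoA at the head of the mevalonate pathway (chromosome 5, 43289395 to 43313512, hg38), changed most in H82. Its level was 26.45, 23.59 and 23.09 in the H82 controls and 67.25, 63.57 and 68.31 with ORY-1001. The H211 values were 61.34, 60.5 and 65.03 in the controls and 45.83, 48.89 and 48.21 after treatment. The groups do not overlap in either line: all 3 treated libraries lay above the controls in H82 and below them in H211. The level was 2.72-fold higher in H82 (log2 1.41, SE 0.056, adjusted p = 2.02e-08) and 1.31-fold lower in H211 (log2 -0.38, SE 0.056, adjusted p = 0.000839). The change in H211 minus that in H82 was -1.79 on the log2 scale (adjusted p = 8.69e-08).

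FDFT1, squalene synthase, commits farnesyl units to sterols. It stood at 132.2, 131.6 and 130.3 in H82 controls and at 217.1, 215.4 and 211.1 after treatment. The H211 controls held 464.7, 457.9 and 468.3, and the treated libraries 371.6, 367.9 and 345.1. The treated libraries lay outside the control range in both lines, above it in H82 and below it in H211. FDFT1 was 1.63-fold higher in H82 (adjusted p = 7.65e-08) and 1.28-fold lower in H211 (adjusted p = 2.88e-05), a difference of -1.06 in log2 change (adjusted p = 9.31e-08).

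MSMO1, the C4 sterol methyl oxidase (chromosome 4, 165327623 to 165343160), fell by a larger factor in H211 than the other sterol enzymes that fell there. The H211 controls were at 28.76, 31.29 and 28.65 and the treated libraries at 16.4, 16.69 and 17.57. Levels in H82 were 30.31, 32.4 and 32.24 without ORY-1001 and 46.17, 41.64 and 39.65 with it. The lines started from overlapping control levels (adjusted p = 0.173) and their treated libraries moved apart. The level was 1.75-fold lower in H211 (log2 -0.77, SE 0.062, adjusted p = 8.73e-06) and 1.34-fold higher in H82 (log2 0.41, adjusted p = 0.000281).

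Promoters of these genes were searched for motifs, with counts given below. Of these, 6 are printed so that called genes with a marked motif can be read beside one that was not called. The 4 called ones are INSIG1 and the sterol genes with the smallest p in either line among those with a listed promoter that holds a marked motif, so promoters without a CCAAT box, such as that of IDI1, are not among them. They are RefSeq windows on GRCh38.p14, 5′ to 3′ on the gene's strand, cut to end just before the GENCODE 29 start of the gene. Capitals mark the CCAAT box, the motif of NF-Y, a partner of SREBPs, and the core of the sterol regulatory element, where SREBPs bind, on either strand. The first 4 belong to genes that rose in H82. They lie at chr5:43313513-43313662 (HMGCS1, minus strand), chr7:155297628-155297775 (INSIG1, plus), chrX:152830813-152830966 (NSDHL, plus) and chr4:165327419-165327622 (MSMO1, plus). The fifth, at chr11:65111622-65111844, is TM7SF2, a sterol reductase that was called in neither line. The last, at chr22:41832855-41833078, is SREBF2, which was added after its values were seen, because it fell in both lines.
HMGCS1: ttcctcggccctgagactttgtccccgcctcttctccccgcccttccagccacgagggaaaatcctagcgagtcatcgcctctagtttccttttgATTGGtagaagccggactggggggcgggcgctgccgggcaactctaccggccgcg
INSIG1: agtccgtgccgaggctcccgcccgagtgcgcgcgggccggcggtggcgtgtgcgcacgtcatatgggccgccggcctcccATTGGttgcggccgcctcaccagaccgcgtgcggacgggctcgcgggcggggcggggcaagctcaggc
NSDHL: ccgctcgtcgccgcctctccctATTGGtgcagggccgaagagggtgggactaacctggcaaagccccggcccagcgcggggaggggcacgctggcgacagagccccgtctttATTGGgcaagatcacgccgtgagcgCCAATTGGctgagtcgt
MSMO1: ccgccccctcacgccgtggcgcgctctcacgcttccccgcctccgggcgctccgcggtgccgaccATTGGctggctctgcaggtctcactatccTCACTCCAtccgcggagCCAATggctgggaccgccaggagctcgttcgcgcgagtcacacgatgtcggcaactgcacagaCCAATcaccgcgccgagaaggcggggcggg
TM7SF2: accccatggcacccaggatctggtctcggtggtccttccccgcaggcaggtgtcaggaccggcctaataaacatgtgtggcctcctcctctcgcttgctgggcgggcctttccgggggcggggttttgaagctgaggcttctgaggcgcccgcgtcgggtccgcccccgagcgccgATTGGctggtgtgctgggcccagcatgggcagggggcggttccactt
SREBF2: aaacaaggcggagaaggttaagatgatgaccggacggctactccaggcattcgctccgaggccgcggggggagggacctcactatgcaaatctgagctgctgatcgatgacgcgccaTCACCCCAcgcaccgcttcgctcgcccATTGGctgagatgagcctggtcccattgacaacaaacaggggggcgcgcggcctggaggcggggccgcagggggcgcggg

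Of the 35 genes, 30 matched a RefSeq promoter; ACAT2, FDFT1, SQLE, FASN and ABCG1 did not. Windows of the 250 bases before the first listed start were searched on both strands for 3 motifs. The end of a sterol element core can share bases with a CCAAT box, but no 2 matches did so in the 3 promoters with a core. The CCAAT box was spelled CCAAT. It stood in 12 of 15 sterol synthesis promoters (80%), in 2 of 7 of fatty acid synthesis and in 3 of 6 of SREBP control. The share was 33.04% over 27305 genes and 35.23% over the 10535 of them that were tested. The sterol element core was spelled TCACNCCA, with N any base. It stood in 3 of 30 promoters, those of MVK, MSMO1 and SREBF2, against 3.183% of all genes and 2.753% of those tested. Other spellings of the element and bases outside these windows were not searched, so a promoter without a match may still hold one. The GC box, bound by Sp1, was spelled GGGCGG. It stood in 14 of 15 sterol promoters, against 42.31% of all genes and 67.34% of those tested. TM7SF2, with a CCAAT box 74 bases and 4 GC boxes 41 to 151 bases before its start, was not called in either line. MSMO1 and SREBF2 both carry a sterol element core and a CCAAT box, and in H82 the first rose and the second fell.

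Along the rest of the pathway, the early enzymes differed among themselves. ACAT2, acetyl-CoA acetyltransferase, had means ± SD over 3 libraries of 59.6 ± 6.03 and 95.0 ± 3.81 in H82 and 70.1 ± 2.84 and 59.8 ± 2.96 in H211, controls first. It was 1.59-fold higher in H82 (adjusted p = 1.64e-05) and 1.17-fold lower in H211 (adjusted p = 0.039). IDI1, the isopentenyl diphosphate isomerase, rose 1.89-fold in H82, from 24.9 ± 1.44 to 47.0 ± 2.79, and in H211 went from 34.7 ± 1.14 to 26.8 ± 0.758, 1.3-fold lower. FDPS, farnesyl diphosphate synthase, was 1.35-fold higher in H82 and 1.19-fold lower in H211. MVK, mevalonate kinase, rose 1.38-fold in H82, from 10.4 ± 1.26 to 14.4 ± 0.603, and had adjusted p = 0.114 in H211. PMVK, the next kinase, was the exception in H82: it fell from 31.5 ± 2.27 to 22.8 ± 0.859, 1.39-fold lower (adjusted p = 0.00075). PMVK in H211 was at 10.3 ± 1.03 and 11.8 ± 0.809 (adjusted p = 0.14), and its change differed between the lines by 0.63 (adjusted p = 0.0014). MVD, mevalonate diphosphate decarboxylase, had adjusted p = 0.101 and 0.117 in H82 and H211.

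The call for ACAT2 in H211 was lost when any 1 H211 library was left out (adjusted p = 0.0541 to 0.124) and without H82 ORY-1001 replicate 2 (0.0534). FDPS in H211 was lost without H211 ORY-1001 replicate 1 (adjusted p = 0.0507), and MVD was gained in H82 without H82 control replicate 1 (0.0158).

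Of the 10 later enzymes, from squalene to cholesterol, 6 rose in H82 and fell in H211, MSMO1 among them. SQLE, squalene epoxidase, rose 1.2-fold in H82 and fell 1.18-fold in H211. LSS, lanosterol synthase, rose from 53.8 ± 2.56 to 67.0 ± 2.58 in H82 and fell from 68.6 ± 1.49 to 43.2 ± 5.65 in H211, 1.59-fold lower (adjusted p = 0.000181). CYP51A1, the lanosterol demethylase, rose 1.23-fold and fell 1.3-fold. EBP, the sterol isomerase, rose 1.36-fold and fell 1.19-fold. DHCR7, the final reductase of one branch, rose from 72.5 ± 3.83 to 99.3 ± 7.55 in H82 and fell from 377 ± 19.4 to 289 ± 21.1 in H211.

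For 3 later enzymes the rise in H82 had no called counterpart in H211. NSDHL, which removes the C4 carboxyl group, rose 1.64-fold in H82 (adjusted p = 1.82e-06) and was at 62.4 ± 3.96 and 64.6 ± 2.75 in H211 (adjusted p = 0.554). SC5D, the sterol C5 desaturase, rose 1.54-fold in H82 and had adjusted p = 0.287 in H211. HSD17B7, a 3-ketosteroid reductase, rose 1.36-fold in H82 and had log2 -0.19 in H211 (adjusted p = 0.206), or -0.48 (0.0258) in the fit without 4 libraries described below. TM7SF2 was at 8.77 ± 0.92 and 9.22 ± 1.51 in H82 (adjusted p = 0.697) and at 38.5 ± 0.675 and 44.7 ± 2.28 in H211 (adjusted p = 0.189; 0.0343, higher, when the H211 libraries were fitted alone). FDPS, CYP51A1 and HSD17B7 have 8, 3 and 2 annotated pseudogenes, and the fatty acid genes SCD and FADS2 have 1 each. The levels of these genes are uncertain if reads were shared. The same holds for genes with overlapping annotation, among them TM7SF2 (VPS51) and FADS2 (FEN1) on the same strand. ACAT2 overlaps SOD2 and TCP1 on the other strand.

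Together, 11 sterol enzymes rose in H82 and fell in H211: ACAT2, HMGCS1, IDI1, FDPS, FDFT1, SQLE, LSS, CYP51A1, MSMO1, EBP and DHCR7. The share of all tested genes that rose in H82 and also fell in H211 was not counted. Such joint counts are therefore a description only. The difference between the lines was itself tested, and 16 of 18 had a lower log2 change in H211, 1 (PMVK) a higher one, and TM7SF2 was not called. By that test 17.8% of all tested genes differed with a higher change in H211 and 14.3% with a lower one (32.1% either way). The mean log2(TPM + 1) of the branch was 5.46 ± 0.014 in H82 controls and 5.91 ± 0.018 with ORY-1001. In H211 it was 6.11 ± 0.023 and 5.86 ± 0.035. The lines were thus closer together in this mean with the compound than without it.

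**Figure D1:**
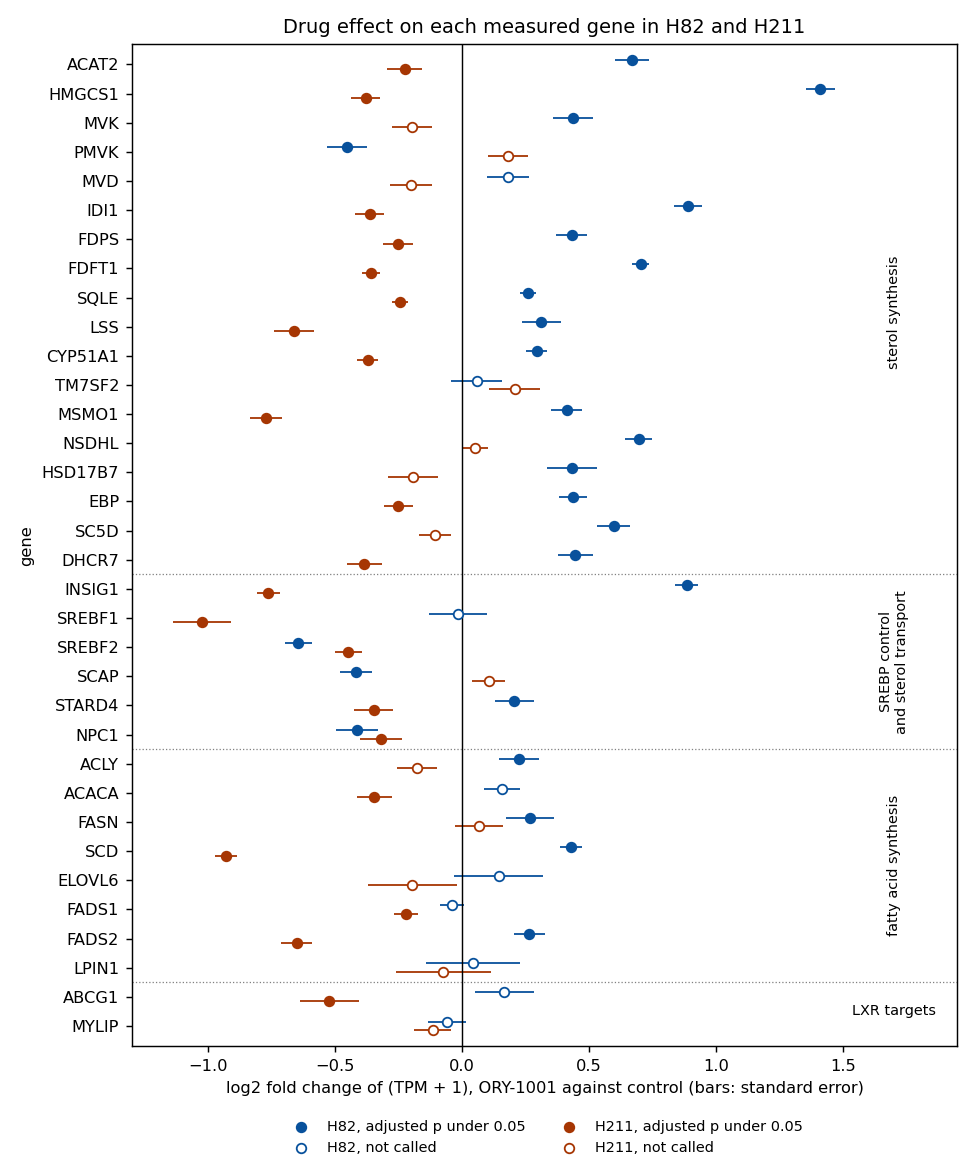
Log2 fold change of (TPM + 1) with ORY-1001 for each of the 34 tested genes in H82 and H211, grouped by role, with standard error bars from limma. Filled points have adjusted p under 0.05. In sterol synthesis 15 filled H82 points lie right of 0 and 11 filled H211 points lie left of it.

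Myeloid and leukocyte transcripts moved with treatment in H82 and differed between libraries of H211, as given above, and their part in these changes was not tested. A fit left out 4 libraries that differ from their group in HBG2 (replicate 3 of treated H82, replicates 1 and 2 of control H211 and replicate 3 of treated H211), and in it 19 of the 21 genes called higher in H82 were called again. Both remaining treated libraries of H82, at 36.07 and 42.21, hold as much of the 15 markers as the one left out, at 32.1. Their HBG2 is at 0 and 0.1204, against 22.43 to 28.15 in the H82 controls. Treated and control libraries of H82 thus still differ in these transcripts, and this fit does not test their part there. In H211 that fit has a lone control library, which is assumed to vary like the other groups. All 21 genes called lower in H211 kept their direction there, and 9 were called again. Among the sterol enzymes, ACAT2, HMGCS1, IDI1, FDPS, EBP and DHCR7 were not called again. Nor were SREBF1, STARD4, NPC1, ACACA, FADS1 and ABCG1. HMGCS1 then had log2 -0.45 in H211, FDFT1 -0.34, MSMO1 -0.76, INSIG1 -0.72 and SCD -0.82.

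**Figure D2:**
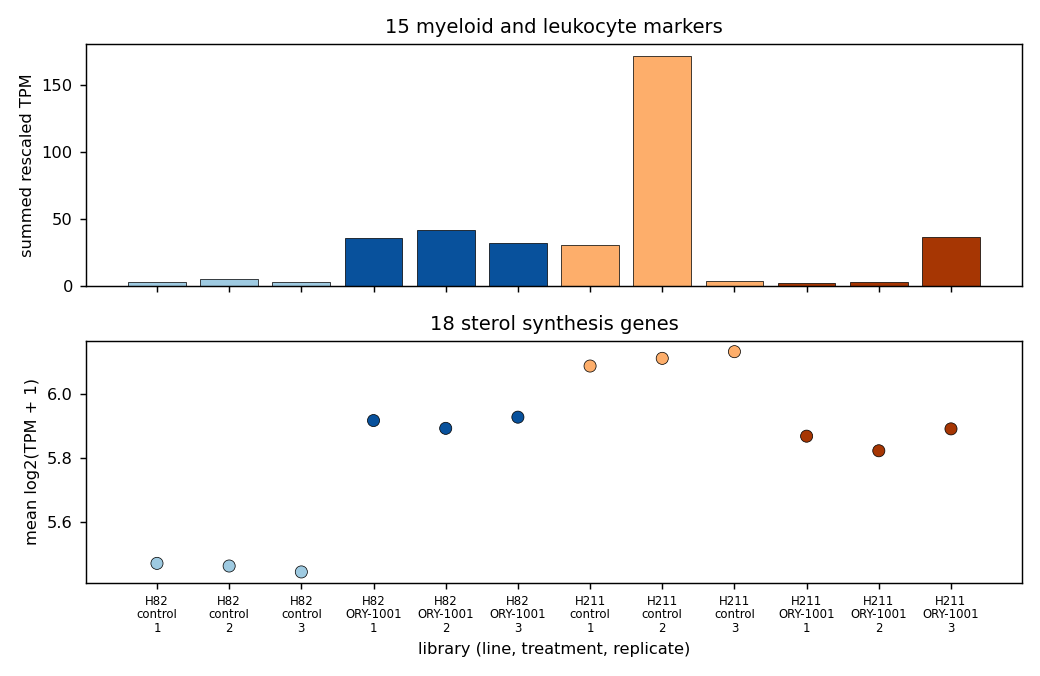
Above, the summed rescaled TPM of 15 myeloid and leukocyte markers in each library; below, the mean log2(TPM + 1) of the 18 sterol synthesis genes in the same libraries. The marker sum runs from 2.386 to 171.9, and H211 control replicate 3, at 3.764, has a sterol mean of 6.13 beside 6.09 and 6.11 in the other H211 controls.

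Among the 6 genes of SREBP control and sterol transport, the changes did not follow a single direction in H82. There 2 rose (INSIG1, STARD4) and 3 fell (SREBF2, SCAP, NPC1), with a median log2 change of -0.21. In H211, 5 fell and none rose, with a median of -0.40, and SCAP was not called. That is 83.3% called in each line, against 43.0% of all tested genes in H82 and 18.6% in H211. INSIG1 moved with the sterol enzymes, while SREBF2 fell in both lines.

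INSIG1 (chromosome 7, 155297776 to 155310235) was at 41.66, 41.46 and 43.14 in H82 controls and at 81.14, 75.92 and 78.49 in the treated libraries. In H211 the controls held 52.23, 54.58 and 52.34 and the treated libraries 32.36, 30.54 and 29.74. The treated libraries of H82 lay above all 9 others, and those of H211 below them. INSIG1 was 1.87-fold higher in H82 (log2 0.88, SE 0.044, adjusted p = 9.69e-08) and 1.72-fold lower in H211 (log2 -0.76, SE 0.044, adjusted p = 4.94e-07). Its log2 changes differed by -1.65 (adjusted p = 2.01e-08).

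SREBF1 (chromosome 17, 17810399 to 17837002) changed in H211. The H211 controls were at 57.92, 59.69 and 54.37 and the treated libraries at 30.12, 26.87 and 26.12. The H82 controls were at 51.17, 36.4 and 38.73 and the treated libraries at 36.99, 44.81 and 42.17, with overlap. The level was 2.07-fold lower in H211 (log2 -1.02, SE 0.114, adjusted p = 0.000108), and adjusted p was 0.939 in H82. The difference between the lines was -1.01 (adjusted p = 0.000758). Without the 4 libraries named above, adjusted p was 0.0597 in H211 and 0.0526 for the difference. SREBF1 hosts the microRNA gene MIR33B and overlaps RAI1 on the other strand, and the strand setting of the counting was not given in the sources used here.

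SREBF2 (chromosome 22, 41833079 to 41907308) fell in both lines. It was at 106.5, 108.8 and 105.8 in H82 controls and at 63.69, 66.27 and 74.75 with ORY-1001. In H211 the controls were at 44.08, 42.02 and 43.27 and the treated libraries at 32.01, 31.25 and 30.78. No treated library reached the controls of its line. The fall was 1.57-fold in H82 (log2 -0.65, SE 0.053, adjusted p = 3.88e-06) and 1.38-fold in H211 (log2 -0.45, SE 0.053, adjusted p = 0.000186). The difference between these falls had adjusted p = 0.0675, or 0.00606 without H82 ORY-1001 replicate 3. SREBF2 overlaps the antisense gene SREBF2-AS1.

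SCAP, the escort of both SREBPs, fell in H82 from 64.5 ± 0.582 to 48.1 ± 3.27, 1.34-fold lower (adjusted p = 0.000304). In H211 it was at 27.1 ± 2.28 and 29.1 ± 0.854 (adjusted p = 0.298), and its changes differed by 0.52 (adjusted p = 0.00125). NPC1, which carries cholesterol out of lysosomes, fell 1.38-fold in H82 (adjusted p = 0.00196) and 1.3-fold in H211 (adjusted p = 0.0212). STARD4, a cytosolic sterol carrier, was 1.17-fold higher in H82 (adjusted p = 0.0469) and 1.3-fold lower in H211 (adjusted p = 0.00871).

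The call for STARD4 in H82 was lost without any 1 of the 6 H82 libraries (adjusted p = 0.0529 to 0.119). H211 control replicates 1 and 3 and ORY-1001 replicate 3 had the same effect when left out (0.0546, 0.0572 and 0.0513). NPC1 in H211 lost its call when control replicate 1, control replicate 2 or ORY-1001 replicate 3 of that line was left out (0.0577, 0.0704 and 0.0669).

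**Figure D3:**
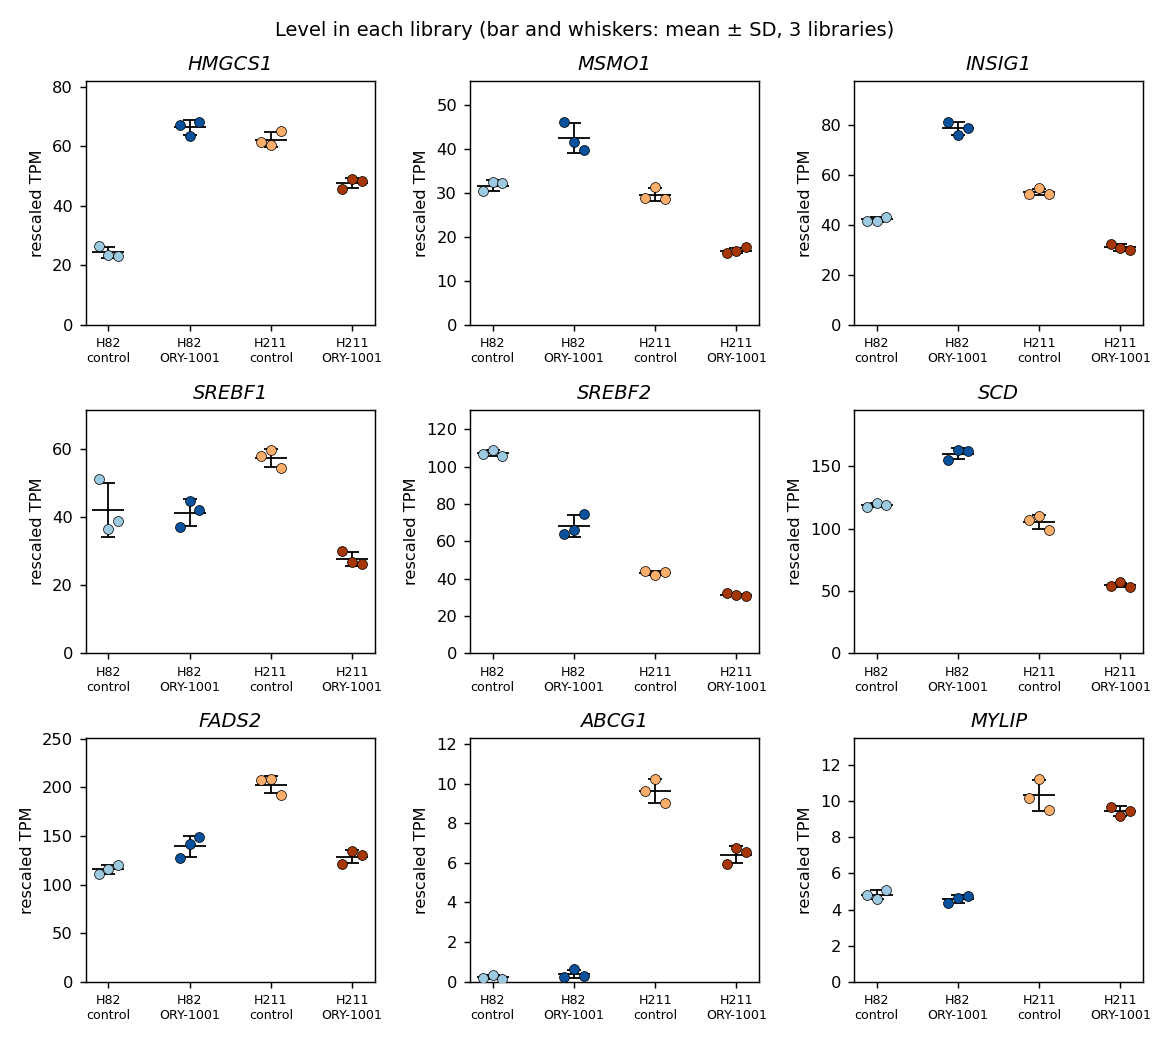
Rescaled TPM of 9 genes in each of the 12 libraries, with the mean ± SD of 3 libraries per group; each vertical axis starts at 0. INSIG1 rises from 41.46 to 43.14 in H82 controls to 75.92 to 81.14 with ORY-1001 and falls from 52.23 to 54.58 to 29.74 to 32.36 in H211.

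In the fatty acid branch the called genes also rose in H82 and fell in H211, and they were 4 of 8 in each line, 50%. Of all tested genes 43.0% were called in H82 (19.1% rose) and 18.6% in H211 (9.61% fell). The difference between branches was not tested. In H82, 4 genes rose (ACLY, FASN, SCD, FADS2) and none fell, with a median log2 change of 0.19. In H211, 4 fell (ACACA, SCD, FADS1, FADS2) and none rose, with a median of -0.21. SCD and FADS2 rose in H82 and fell in H211. The branch mean of log2(TPM + 1) went from 6.01 ± 0.0086 to 6.20 ± 0.078 in H82 and from 5.97 ± 0.036 to 5.66 ± 0.054 in H211.

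SCD (chromosome 10, 100347124 to 100364834), the desaturase that makes oleic from stearic acid, was at 117.4, 120.3 and 118.7 in H82 controls and at 155.1, 163.1 and 162.6 with ORY-1001. In H211 the controls were at 107.2, 109.9 and 99.07 and the treated libraries at 54.21, 56.93 and 53.37. All treated libraries lay outside the control range of their line. SCD was 1.35-fold higher in H82 (log2 0.43, SE 0.044, adjusted p = 1.89e-05) and 1.92-fold lower in H211 (log2 -0.93, SE 0.044, adjusted p = 1.09e-07). Its log2 changes differed by -1.36 (adjusted p = 1.14e-07).

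FADS2, the desaturase of polyunsaturated fatty acids (chromosome 11, 61792980 to 61867354), was at 110.7, 116.4 and 119.9 in H82 controls and at 127.4, 141.9 and 148.8 with ORY-1001. In H211 the controls were at 207.1, 209 and 192.4 and the treated libraries at 121.4, 134.3 and 130.7. With ORY-1001 the lines overlapped at levels that had been apart in the controls. FADS2 was 1.2-fold higher in H82 (adjusted p = 0.00499) and 1.57-fold lower in H211 (adjusted p = 3.09e-05), a difference of -0.92 (adjusted p = 2.62e-05). FADS1, its neighbour with overlapping annotation on the other strand, was at 79.9 ± 0.326 and 77.7 ± 0.845 in H82 (adjusted p = 0.546) and fell from 50.9 ± 1.31 to 43.6 ± 2.97 in H211 (adjusted p = 0.00731). The difference for FADS1 had adjusted p = 0.0559, or 0.0152 without H211 ORY-1001 replicate 2.

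The enzymes that make the fatty acid chain had folds under those of SCD in both lines. ACLY, which supplies cytosolic acetyl-CoA, was 1.17-fold higher in H82 (adjusted p = 0.0375) and had adjusted p = 0.146 in H211. ACACA, acetyl-CoA carboxylase, had adjusted p = 0.0922 in H82 and fell 1.28-fold in H211, from 63.4 ± 6.45 to 49.5 ± 0.146 (adjusted p = 0.00572). FASN, fatty acid synthase, was 1.21-fold higher in H82 (adjusted p = 0.0409) and at 186 ± 22.4 and 194 ± 19.6 in H211 (adjusted p = 0.693). ELOVL6, an elongase, and LPIN1, a phosphatidate phosphatase, were called in neither line (adjusted p = 0.495 to 0.885).

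ACLY in H82 lost its call without any 1 H82 control (adjusted p = 0.0608 to 0.118) and without H82 ORY-1001 replicate 2 or 3 (0.121 and 0.137). FASN in H82 lost its call without the same libraries, with adjusted p = 0.063 to 0.149, while ACACA in H82 gained one without H211 control replicate 3 (0.0411).

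Of the LXR targets, ABCG1 and MYLIP were tested, and neither rose in either line. ABCG1 was near 0 in H82, and ABCA1 was not tested. ABCA1, the sterol exporter to lipid-poor apolipoprotein, was listed at 0, 0 and 0.0086 in H82 controls and at 0.0072, 0.011 and 0.080 after treatment. The H211 controls were at 0.1238, 0.1378 and 0.136 and the treated libraries at 0.1028, 0.063 and 0.070. These levels are too low for a comparison.

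ABCG1, which exports sterol to lipoprotein particles (chromosome 21, 42199689 to 42297244), was at 9.621, 10.25 and 9.011 in H211 controls and 5.916, 6.743 and 6.549 with ORY-1001. In H82 it was at 0.2069, 0.3553 and 0.1603 and at 0.2575, 0.6345 and 0.3066. The groups part in H211 and overlap in H82. ABCG1 was 1.5-fold lower in H211 (log2 -0.52, SE 0.115, adjusted p = 0.00929) and had adjusted p = 0.277 in H82. The change in H211 had adjusted p = 0.185 with a pseudocount of 0.1, and 0.274 without the 4 libraries named above.

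MYLIP, the ubiquitin ligase that marks lipoprotein receptors for degradation, was at 4.794, 4.599 and 5.086 in H82 controls and 4.349, 4.637 and 4.778 after treatment. The H211 controls were at 10.18, 11.26 and 9.545 and the treated libraries at 9.713, 9.16 and 9.44. Treated and control libraries overlap in both lines (adjusted p = 0.562 and 0.322). Its log2 change was -0.06 in H82 and -0.12 in H211, each with SE 0.074.

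**Figure D4:**
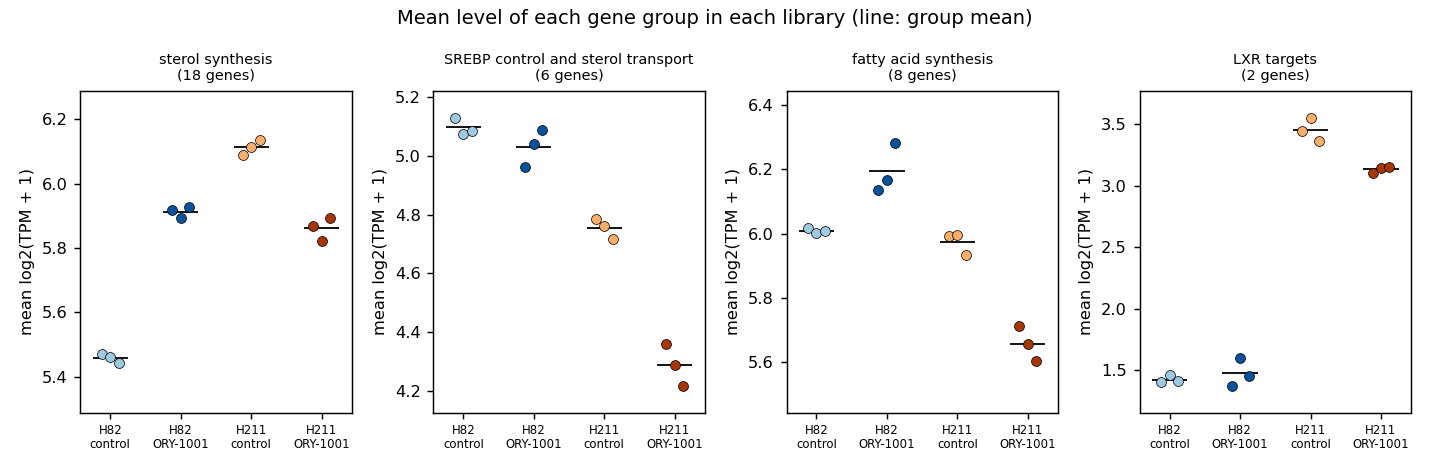
Mean log2(TPM + 1) of each gene group in each library; lines mark group means, and the vertical axes differ and do not start at 0. The sterol synthesis panel goes from 5.46 to 5.91 in H82 and from 6.11 to 5.86 in H211, while the panel of LXR targets (ABCG1 and MYLIP) goes from 1.42 to 1.48 and from 3.45 to 3.13.

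Over all gene groups, 21 of the 34 tested genes rose and 4 fell in H82, and 21 fell and none rose in H211. At adjusted p under 0.05 the change differed between the lines for 26, lower in H211 for 24 and higher for PMVK and SCAP. The 24 include ABCG1, which passed the filter only through H211. At an unadjusted p under 0.05 in limma, 1 gene, PMVK, was higher in H211. By that rule no gene of fatty acid synthesis was higher in H211 or lower in H82, and neither tested LXR target passed in H82. The median log2 changes were 0.26 in H82 and -0.25 in H211. Beside the backgrounds given above, the share called in H82 was 73.5% and in H211 61.8%. The 3 comparisons share libraries, so their counts are not independent of each other.

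A further 57 genes of the surrounding pathways, on 4 lists, are set beside the members, and 54 were tested. In H82, 11 rose and 19 fell, 55.6% called against 43.0% of all tested genes. In H211, 5 rose and 14 fell, 35.2% against 18.6%. The 5 include CH25H, which passed the filter only through treated H211 and is described below without a test. The median log2 changes were -0.06 and -0.10. The members and these lists were not compared by a test.

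Of 12 genes of SREBP processing and oxysterol sensing, 2 rose and 3 fell in each line, 41.7% called, against 43.0% of all tested genes in H82 and 18.6% in H211. INSIG2, the second retention protein, was at 7.82, 7.882 and 9.079 in H82 controls and 13.79, 12.3 and 10.6 with ORY-1001, 1.48-fold higher (adjusted p = 0.00325). The H211 controls were at 22.2, 18.15 and 18.78 and the treated libraries at 12.43, 14.61 and 15.34, 1.4-fold lower (adjusted p = 0.0158; 0.066 without H211 control replicate 1 and 0.0635 without H211 ORY-1001 replicate 1). INSIG2 thus moved in the directions of INSIG1. NR1H2, which encodes LXR beta, fell 1.3-fold in H211 (adjusted p = 0.011) and 1.22-fold in H82 (0.023). The call in H82 was lost when control replicate 1 or 3 or ORY-1001 replicate 1 or 2 of H82 was left out (0.0507 to 0.0888). CH25H, which makes 25-hydroxycholesterol, an oxysterol that retains SREBPs, was named after its values were seen. It was at 0.09795, 0.06525 and 0.1645 in H211 controls and 1.626, 1.486 and 1.903 with ORY-1001, low levels in both groups. It reached 1 in these 3 treated libraries alone and so passed the filter only through the group where it is high, and its values are a description with no test. The counts above still include CH25H, as 1 of the 2 genes that rose in H211 and in the 41.7% there. In H82 it was listed at 0 in 5 of 6 libraries.

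Of 8 tested genes of isoprenoid and sterol side reactions, 2 rose and 2 fell in H82 (50%) and 1 fell in H211 (12.5%), shares near those of all tested genes. PDSS1, of coenzyme Q side chain synthesis, rose 1.45-fold in H82 (adjusted p = 1.14e-05) and GGPS1, which makes geranylgeranyl diphosphate, fell 1.3-fold (adjusted p = 0.00902). LBR, the nuclear envelope sterol reductase, fell 1.13-fold in H211 (adjusted p = 0.00537) and 1.07-fold in H82 (0.0376). The call in H82 was lost when any H82 control, ORY-1001 replicate 2 or 3 of H82, control replicate 2 of H211 or ORY-1001 replicate 1 of H211 was left out (0.0509 to 0.119).

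Sterol uptake and transport held 10 tested genes, with 1 higher and 4 lower in H82 and 2 higher and 3 lower in H211. That is 50% in each line, against 43.0% of all tested genes in H82 and 18.6% in H211. SCARB1, a lipoprotein receptor, was at 68.55, 61.29 and 68.65 in H82 controls and 122.9, 123.2 and 128.5 with ORY-1001, 1.89-fold higher (adjusted p = 1.36e-07). In H211 it was 1.14-fold higher (adjusted p = 0.0164; 0.0521 without H211 control replicate 3, and 0.114 with equal column totals). OSBP, an oxysterol-binding exchanger, fell 1.56-fold in H82 (adjusted p = 1.91e-05). GRAMD1B, which moves cholesterol from the plasma membrane inward, was at 18.09, 18.76 and 19.96 in H211 controls and 5.165, 5.536 and 4.622 with ORY-1001, 3.71-fold lower (adjusted p = 7.66e-06). LRP8, a lipoprotein receptor family member, fell 1.47-fold in H211 (adjusted p = 0.00559).

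Fatty acid supply and modification held 24 genes, with 6 higher and 10 lower in H82 (66.7%) and 1 higher and 7 lower in H211 (33.3%). Of all tested genes, 43.0% were called in H82 and 18.6% in H211. ELOVL1, an elongase of very long chains, rose 1.78-fold in H82 (adjusted p = 9.69e-08), and ELOVL5, of polyunsaturated chains, fell 1.4-fold (adjusted p = 9.41e-06). ELOVL5 also fell 1.19-fold in H211 (adjusted p = 0.00361). ACSL4, which activates arachidonic acid, was at 179.4, 176.7 and 172.3 in H211 controls and 74.26, 72.83 and 73.06 with ORY-1001, 2.4-fold lower (adjusted p = 1.9e-07). ACSL3, another acyl-CoA synthetase, fell 1.45-fold in H211 (adjusted p = 0.000841) and rose 1.22-fold in H82 (0.0116). Without the 4 libraries named above, these pathway calls in H211 were lost for INSIG2 (adjusted p = 0.139), NR1H2 (0.391), LBR (0.215), SCARB1 (0.172), LRP8 (0.114), ELOVL5 (0.228) and ACSL3 (0.0683). In H82 those of NR1H2 (0.0841), GGPS1 (0.0828), LBR (0.153) and ACSL3 (0.0586) were lost.

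Without the compound the lines already differed in these genes, as most genes did. Between the controls 39.7% of all tested genes were higher in H211 and 40.8% lower (80.5% either way). Of the 34 members 21 were higher and 10 lower, 91.2% either way. The 21 include ABCG1, which passed the filter only through H211, where it is high. DHCR7 was 5.2-fold, TM7SF2 4.39-fold, SQLE 4.25-fold and FDFT1 3.53-fold higher in H211 controls. LPIN1 was 3.54-fold, HSD17B7 3.46-fold, PMVK 3.05-fold, SREBF2 2.48-fold and SCAP 2.38-fold higher in H82 controls. SCD and EBP were lower in H211 controls by 1.13-fold and 1.15-fold (adjusted p = 0.00349 and 0.00679), and with columns scaled to equal totals adjusted p was 0.488 and 0.356. STARD4, 1.17-fold higher in H211 controls (adjusted p = 0.0212), lost that call without H82 control replicate 1, H82 control replicate 2, H211 control replicate 1 or H211 control replicate 3 (0.0612, 0.0586, 0.0774 and 0.0567). ELOVL6, not called between the controls (adjusted p = 0.105), had 0.0343 without H82 ORY-1001 replicate 2.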

How the data were processed

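The deposited table holds TPM, a length-scaled signal, for 56508 symbols in 12 libraries; column totals of 967415 to 1111988 show that the authors rescaled it between libraries, so it is called rescaled TPM. Another 27 rows carry dates in place of symbols and were not named. Per the labels' protocols, RNA was enriched with oligo(dT) and made into libraries with the NEBNext Ultra II kit. The submitters' processing notes name hg38 and, with no roles, R 4.0.4, sleuth 0.30.0, Salmon 1.1.0, DESeq2, featureCounts (Subread 1.5.2), STAR 2.5.2b and Trimmomatic 0.36; which made the table was not given in the sources used here. TPM keeps no depth, so no counting interval is given, and the plan for TPM was kept for this signal.

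Values were tested as log2(TPM + 1), which understates changes of low genes, by limma 3.58.1 (R 4.3.3; eBayes with trend, 4 group means, all 12 libraries, two-sided). P-values were adjusted by Benjamini-Hochberg over 15456 genes at 1 or more in at least 3 libraries. Folds are ratios of group means. The fit was tested on simulated data.

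The members, lists and tests were chosen with earlier results of these data known. Values in every library are given for HMGCS1, INSIG1, SREBF1, SREBF2, the LXR targets and, per group in each drug comparison and in the drug difference, the 2 called genes with the smallest p. From each pathway list up to 2 called genes per line with a mean of at least 5 were named, by smallest p; 1 gene that this rule takes is not reported here. Alternatives changed the pseudocount, filter, scaling, variance model, weights and libraries, and added the replicate number as a block. Gene positions are from GENCODE 29.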

Additional observations from a re-analysis of the deposited data

Results flagged for a closer look

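The change with ORY-1001 differed between H211 and H82 for 26 of the 34 tested genes, by the interaction contrast of limma (adjusted p from 2.01e-08 to 0.0273). Values below are the log2 change in H211 minus that in H82.

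In sterol synthesis the difference was -1.79 for HMGCS1, -1.25 for IDI1, -1.18 for MSMO1, -1.06 for FDFT1, -0.97 for LSS and -0.89 for ACAT2. It was -0.83 for DHCR7, -0.70 for SC5D, -0.69 for EBP, -0.68 for FDPS, -0.66 for CYP51A1 and -0.64 for NSDHL. It was -0.63 for MVK, -0.63 for HSD17B7, -0.50 for SQLE and -0.38 for MVD, and PMVK differed the other way, at 0.63. MVD had adjusted p = 0.0273 and lost its call when 1 of 7 libraries was left out: control replicates 2 and 3 and ORY-1001 replicates 2 and 3 of H82, or control replicates 1 and 2 and ORY-1001 replicate 2 of H211 (0.0508 to 0.0638).

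In SREBP control the difference was -1.65 for INSIG1, -1.01 for SREBF1 and -0.55 for STARD4, and 0.52 for SCAP. In fatty acid synthesis it was -1.36 for SCD, -0.92 for FADS2, -0.50 for ACACA and -0.40 for ACLY. Among the LXR targets it was -0.69 for ABCG1, which passed the filter only through H211 and is near 0 in H82. That value rests largely on its log2 change of -0.52 in H211, and the 26 still include ABCG1. With a pseudocount of 0.1 the difference for ABCG1 was -1.10 (adjusted p = 0.0564). In the fit without 4 libraries it was -0.66 and not called. Without those 4 libraries (H82 ORY-1001 replicate 3, H211 control replicates 1 and 2 and H211 ORY-1001 replicate 3), the direction held for all 26 and 19 were called: 18 of the 24 lower and 1 of the 2 higher.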

How the results depend on the processing

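Over 26 alternatives for each drug comparison and 25 for each comparison between lines, 33 of 136 results for single members changed their call under at least 1. Leaving out each library in turn gave 18 to 21 members called higher and 4 lower in H82, 0 higher and 19 to 21 lower in H211, and 23 or 24 with a lower change in H211. Replicate numbers did not pair the libraries (r of same-numbered deviations from -0.0805 to 0.0449), and with the replicate block 19 rose and 4 fell in H82, 0 and 20 in H211, 2 and 24 differed between the lines and 21 and 11 between controls. One member (TM7SF2) was called higher in H211 with the 6 libraries of the line alone, and 10 were called lower without the 4 libraries left out for their HBG2 level, where fewer libraries were fitted. The block ended the calls of STARD4 (adjusted p = 0.0594) and ACLY (0.0521) in H82 and ACAT2 (0.0708) in H211, and made one for ELOVL6 between controls (0.00428).

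The means of log2 change over a gene group, which were not tested, moved as follows. With a pseudocount of 5, sterol synthesis was at 0.42 in H82, -0.65 for the difference between the lines and 0.61 between controls, SREBP control at -0.40 in H211 and -0.35 for the difference, fatty acid synthesis at 0.041 between controls, and LXR targets at -0.22 in H211, -0.23 for the difference and 1.06 between controls. With a pseudocount of 0.1, LXR targets were at 0.22 in H82, -0.58 for the difference and 2.98 between controls, and with no filter at -0.24 in H211, -0.29 and 1.41. With equal column totals, sterol synthesis was at -0.30 in H211, -0.77 for the difference and 0.78 between controls, SREBP control at -0.46 for the difference and -0.22 between controls, fatty acid synthesis at -0.56 and 0.091, and LXR targets at 2.12 between controls. With equal totals without mitochondrial genes, which put the median of all genes between controls at 0.14, sterol synthesis was at -0.31 in H211, -0.76 for the difference and 0.83 between controls, SREBP control at -0.53 in H211 and -0.17 between controls, fatty acid synthesis at -0.38 in H211 and 0.14 between controls, and LXR targets at 2.17 between controls. The fatty acid mean between controls was -0.035 as reported and above 0 under these 3 alternatives. Under the last scaling the control differences of SCD and PDSS1 changed sign, to 0.0092 and 0.036 (adjusted p = 0.895 and 0.543). Quantile normalization gave -0.73 for the sterol difference between the lines, and median-of-ratios factors 0.68 for sterol synthesis between controls. Without the 4 libraries, sterol synthesis was at -0.29 in H211 and -0.74 for the difference, SREBP control at -0.39 and -0.30, fatty acid synthesis at -0.25 and -0.39, and LXR targets at -0.23 in H211 and 1.94 between controls. Apart from the scalings, the cause of these shifts was not tested. With depth unknown, no counting error can be set beside the low levels of ABCA1, CH25H and, in H82, ABCG1.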
